A study of Homo sapiens with 12 samples.

Results

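PACS1 and SLIT2 had more ribosome footprints per input RNA in HCT116 cells after MEK inhibition. The input RNA of PACS1 was similar under both treatments, and that of SLIT2 was too sparse for a close comparison. They are described here with PACS2, the paralog of PACS1, and ROBO1, the receptor of SLIT2, which makes 4 genes of the 15798 in the table. PACS1 and SLIT2 were chosen by their ribosome density change in these same libraries, where earlier results placed them among the few upward calls. Their trametinib values are therefore a description and carry no test. PACS2 and ROBO1 were picked for their relation to these genes and not for their values. HCT116 is a human colorectal cancer cell line of epithelial origin. Trametinib, which inhibits the MEK kinases upstream of ERK, was given at 100 nM for 24 h, and control dishes received the solvent DMSO, with 3 replicate dishes per treatment. From each dish, randomly fragmented input RNA and ribosome footprints were sequenced, which gave 4 groups of 3 libraries, input and footprints under each treatment. All groups were of the same line and met cycloheximide, which holds ribosomes in place, shortly before lysis.

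PACS proteins are cytosolic sorting adaptors. PACS1 recognizes acidic clusters, often phosphorylated by the kinase CK2, in the tails of membrane proteins such as the protease furin, and couples them to the clathrin adaptor AP1, which returns them to the trans-Golgi network. PACS2 is best known for sorting between the endoplasmic reticulum and mitochondria. SLIT2 is a large secreted glycoprotein that binds ROBO receptors. It was described as a repellent for growing axons and also acts on epithelial and endothelial cells. Ribosome density sets a gene's footprints against its input. It moves when an mRNA is loaded with more or fewer ribosomes at an unchanged amount, here measured relative to other mRNAs.

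The 4 genes lie on different chromosomes of GRCh38. PACS1 spans chromosome 11 from 66070272 to 66244744 on the plus strand, with 24 exons and 2889 coding bases, and PACS2 spans chromosome 14 from 105300563 to 105398147 on the plus strand, with 25 exons and 2712 coding bases. SLIT2 spans chromosome 4 from 20251905 to 20620561 on the plus strand, with 37 exons and 4587 coding bases, and ROBO1 spans chromosome 3 from 78597239 to 79767998 on the minus strand, with 31 exons and 4953 coding bases. Exons and coding bases are those of the MANE Select transcript in Gencode v44.

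Reads were counted by the authors only where they belonged to 1 gene symbol, so that related genes must differ in sequence to be measured. The following coding stretches of 60 bases, each within 1 exon, are the most alike that the paralogs share without gaps. They are shown to make visible how a footprint of one gene is told from the other. Capitals mark the bases that differ within a pair, and 53 of 60 bases are identical in the PACS pair and 52 of 60 in the SLIT pair. PACS1 was read at chr11:66242959-66243018 (plus strand), PACS2 at chr14:105393263-105393322 (plus strand), SLIT2 at chr4:20541556-20541615 (plus strand) and SLIT3 at chr5:168749473-168749532 (minus strand).
PACS1: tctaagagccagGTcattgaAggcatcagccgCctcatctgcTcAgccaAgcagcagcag
PACS2: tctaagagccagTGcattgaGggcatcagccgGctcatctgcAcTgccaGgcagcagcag
SLIT2: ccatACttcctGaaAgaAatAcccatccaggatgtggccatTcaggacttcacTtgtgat
SLIT3: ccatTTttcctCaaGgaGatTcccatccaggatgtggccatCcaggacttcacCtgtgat
The longest run of identical bases anywhere in the coding sequences was 19 for PACS1 and PACS2 and 23 for SLIT2 and SLIT3. None of the 2860 windows of 30 bases in the coding sequence of PACS1 occurred in a transcript of another gene symbol of the Gencode basic set. The same was true of the 2683 windows of PACS2, the 4558 of SLIT2 and the 4924 of ROBO1. Windows that differ by mismatches were not searched, nor were windows shorter than 30 bases, although some counted reads were shorter. The search used Gencode v44, a later version than the one the authors mapped to.

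The 6 input libraries held 2276693 to 2845568 counts each within reading frames, and the 6 footprint libraries 10127477 to 19181588. All 10 genes of an ERK output list were called lower in trametinib input and in trametinib footprints, which checks the treatment labels. Of all tested genes 16.8% and 25.6% were called lower. All 7 epithelial markers passed the filter on low counts. Of 8 markers of blood, vessel and connective tissue cells, 2 did (VWF and COL1A1), and PTPRC, CD3E, COL1A2 and DCN had at most 1 count in any library. Summed over these 8 genes, CPM ran from 11.5 to 14.9 in DMSO input and from 17.4 to 25.5 in trametinib input, against 5158 to 7388 and 8417 to 10634 for the 7 epithelial markers. Of the epithelial markers 5 were called higher in input and 6 in footprints, where 15.4% and 23.9% of all tested genes were. VWF was higher in input by 2.50 on the log2 scale. The part of these markers in the results below was not tested. The dish of DMSO replicate 1 stood apart in both assays, so each ribosome density change is also given without it. In lysates, more RNA per cell and more cells of one kind cannot be told apart. Because libraries are scaled to each other, a change of translation common to all mRNAs cannot be seen. The study reported a fall of global translation in HCT116 cells under trametinib, by polysome profiling and by puromycin incorporation. Each density change below is relative to the other genes and not an absolute gain or loss of ribosomes per mRNA.

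PACS1 had more ribosome footprints under trametinib at a similar amount of input RNA. Values per library are normalized counts, which are counts divided by a size factor that aligns the 6 libraries of an assay. In input, PACS1 had 176, 189 and 191 normalized counts in DMSO and 163, 169 and 183 in trametinib. The groups overlapped, with group means of 185 ± 8.45 and 172 ± 10.0 (SD, n = 3). In footprints, PACS1 had 952, 1150 and 1050 normalized counts in DMSO replicates 1 to 3 and 1732, 1718 and 1627 in trametinib. Every trametinib library lay above every DMSO library, with means of 1050 ± 99.2 and 1692 ± 57.3 (SD, n = 3).

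**Figure D1:**
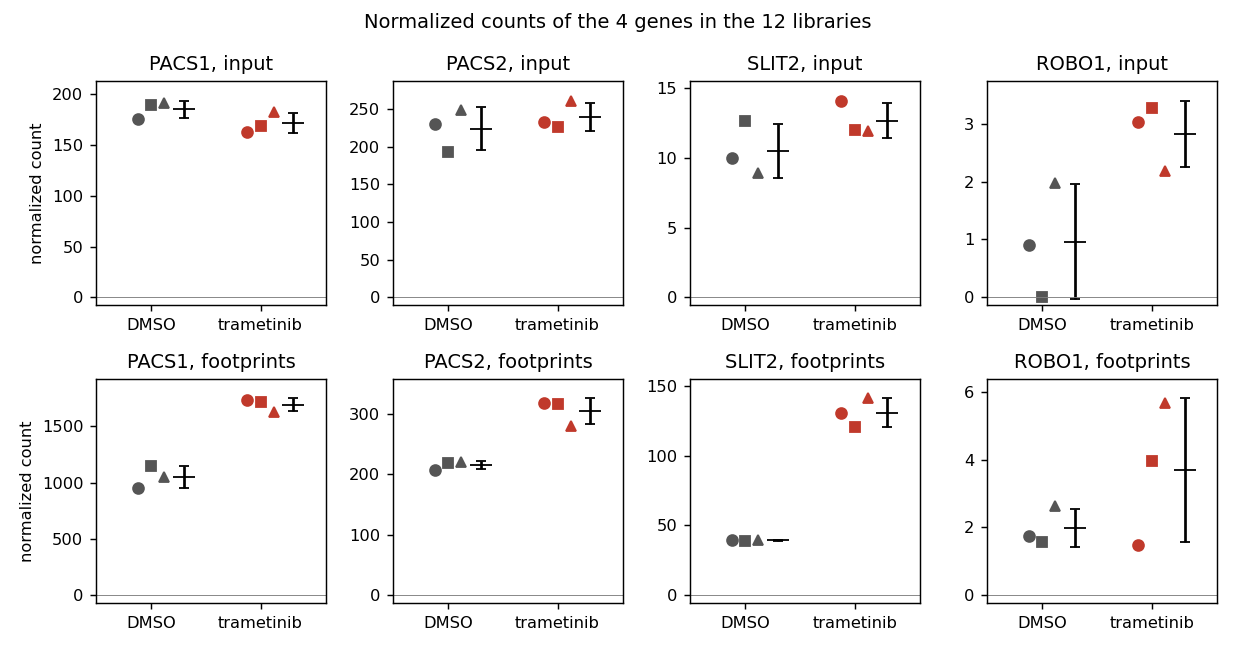
Normalized counts of PACS1, PACS2, SLIT2 and ROBO1 in input (upper row) and footprints (lower row). Circles, squares and triangles are replicates 1, 2 and 3 in DMSO (grey) and trametinib (red), and black bars give the mean ± SD of 3 libraries. Each panel has its own linear axis. PACS1 footprints ran from 952 to 1150 in DMSO and from 1627 to 1732 in trametinib, while the 2 treatments overlapped in PACS1 input.

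Footprints per input placed PACS1 near the middle of all tested genes in DMSO and in the upper part in trametinib. The ratio of normalized footprints to normalized input was 5.42, 6.07 and 5.49 in the 3 DMSO dishes and 10.6, 10.2 and 8.91 in the 3 trametinib dishes. The median tested gene had a ratio between 5.71 and 5.97 in every dish, so that PACS1 was at 0.930, 1.02 and 0.947 times this median in DMSO and at 1.82, 1.76 and 1.56 times in trametinib. In percentiles of the tested genes, PACS1 moved from between 45.5 and 51.0 to between 72.4 and 83.0. All 3 trametinib dishes lay above all 3 DMSO dishes, an order that 832 of 10663 tested genes (7.8%) shared. For PACS1 this order rests on the values by which it was chosen, and nothing is read from it.

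The edgeR estimates on the log2 scale, trametinib over DMSO, were -0.11 (SE 0.15) for PACS1 input, 0.69 (SE 0.11) for its footprints and 0.80 (SE 0.16) for its ribosome density, a ratio of 1.74. In this contrast 0.0375% of tested genes were called higher in density (4 genes, 8 with a replicate block by number and 18 with one by dish) and 1.01% lower (108 genes), from which nothing is read for PACS1, since the contrast chose it. By size of the estimate PACS1 ranked 137 of the 10663 tested genes. Among the 3210 genes with a mean of 100 to 300 normalized input counts, 6 stood above it. These ranks restate the value by which PACS1 was chosen, and nothing is read from them. Without the dish of DMSO replicate 1 the density change of PACS1 was 0.78 (SE 0.17). With each library scaled to its total count it was 0.98, a scaling that moved the median of all tested genes from -0.01 to 0.18. The share of called genes that were higher in density was 3.57%, and it was 25.7% with library totals and 19.8% in DESeq2. Library totals leave PACS1 at about the same distance from the median gene.

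PACS2, the paralog, also gained footprints, and it did so from a far lower ribosome density. In input, PACS2 had 230, 193 and 249 normalized counts in DMSO and 233, 226 and 261 in trametinib. In footprints it had 208, 218 and 221 in DMSO and 318, 316 and 281 in trametinib, so that the treatments overlapped in input and were apart in footprints. The edgeR change of PACS2 was 0.10 (SE 0.16, adjusted p = 0.661) in input and 0.50 (SE 0.13, adjusted p = 0.0106) in footprints. PACS2 footprints thus rose 1.41-fold, in a contrast in which 49.4% of tested genes were called, 23.9% higher and 25.6% lower. With library totals the share of called genes that were higher in footprints went from 48.3% to 64.8%, and the change of PACS2 was 0.68 (edgeR adjusted p = 0.00238). The call was lost without trametinib footprint replicate 1, where the change was 0.47 (edgeR adjusted p = 0.0583).

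For PACS2 ribosome density, the change did not pass the threshold. Its ratio of normalized footprints to normalized input was 0.902, 1.13 and 0.890 in the DMSO dishes and 1.37, 1.40 and 1.08 in the trametinib dishes, and trametinib dish 3 lay below DMSO dish 2. The edgeR estimate was 0.40 (SE 0.18, adjusted p = 0.584, unadjusted p = 0.0430). Its approximate 95% interval, before adjustment, ran from 0.05 to 0.75, so that the data allow a gain from near nothing up to that size. Without the dish of DMSO replicate 1 the density change of PACS2 was 0.35 (SE 0.20, adjusted p = 0.635 in edgeR). Among the tested genes PACS2 stood between percentile 1.44 and percentile 4.24 in the 6 dishes, near the bottom in each.

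**Figure D2:**
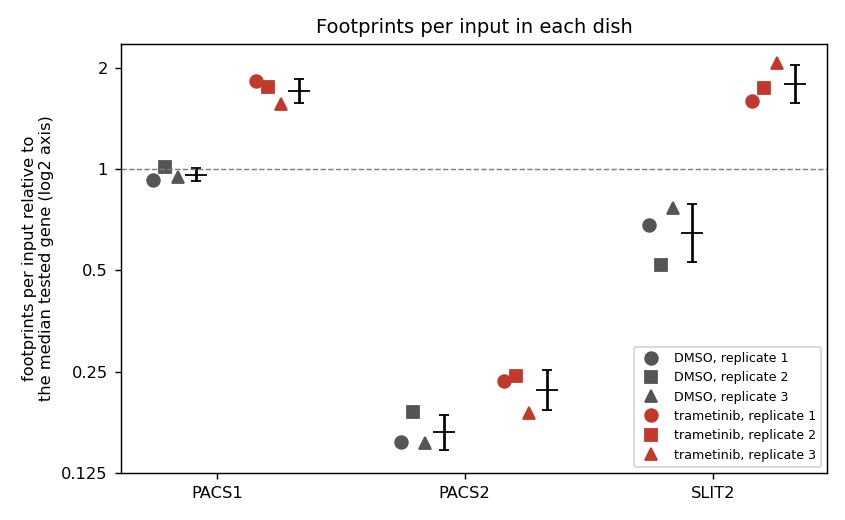
Footprints per input of PACS1, PACS2 and SLIT2 in each dish, divided by the ratio of the median tested gene of that dish (log2 axis, dashed line at 1). Symbols are replicates 1 to 3 in DMSO (grey) and trametinib (red), and black bars give the mean ± SD of the log2 values, n = 3. PACS1 lay between 0.930 and 1.02 in DMSO and between 1.56 and 1.82 in trametinib, SLIT2 between 0.517 and 0.764 and between 1.59 and 2.06, and PACS2 between 0.153 and 0.242 throughout.

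Within an assay, the paralogs are best compared per length. In DMSO input, PACS1 had 64.2 ± 2.92 and PACS2 82.6 ± 10.5 normalized counts per kilobase of coding sequence (SD, n = 3), so that the PACS2 transcript was the more abundant of the pair. In DMSO footprints the order was turned, with 364 ± 34.3 for PACS1 and 79.55 ± 2.66 for PACS2. In trametinib footprints PACS1 was at 586 ± 19.8 and PACS2 at 112.5 ± 7.75. In footprints per input, the coding length cancels. They were 6.0, 5.36 and 6.17 times higher for PACS1 than for PACS2 in the DMSO dishes and 7.77, 7.25 and 8.28 times higher in the trametinib dishes. The dishes of the treatments did not overlap in this ratio. It was not tested, since PACS1 was chosen for its own change. The coding sequences also differ in base composition, with 57.4% G and C in PACS1 and 62.6% in PACS2, and the part of base composition in the ratio was not tested.

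SLIT2 showed the larger footprint gain of the 2 chosen genes, from a transcript at the edge of detection in input. Raw input counts of SLIT2 were 11, 14 and 9 in DMSO and 14, 11 and 11 in trametinib. It passed the filter, which asks for 10 or more counts in 3 or more input libraries, with little to spare. Raw footprint counts were 45, 25 and 45 in DMSO and 178, 122 and 124 in trametinib. After scaling, the footprints were 39.6, 39.0 and 39.5 normalized counts in DMSO and 131, 121 and 141 in trametinib, so that the lowest trametinib library was far above the highest DMSO library.

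The closeness of the 3 DMSO footprint values of SLIT2 is tighter than counting allows on average. Their coefficient of variation was 0.790%, while counts of this size carry an average counting error of 16.6%. The SD of that group, 0.311 normalized counts around a mean of 39.4, therefore understates the error of the measurement. In summed counts, SLIT2 had 115 footprints in DMSO and 424 in trametinib, a ratio of 3.74 after scaling to library totals (exact 95% interval 3.03 to 4.63, for counting error only). These counts are part of the change by which SLIT2 was chosen, so the interval is no test of it. Library totals also moved the median footprint change of all tested genes from -0.01 to 0.16 on the log2 scale. The edgeR estimate of the main fit was a ratio of 3.30. In input the sums were 34 and 36, a ratio of 1.2 (exact 95% interval 0.732 to 1.98). Relative to its estimate the input interval is the wider of these, and the sparse input counts limit the precision of the ribosome density of SLIT2.

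Footprints per input of SLIT2 were 3.97, 3.09 and 4.43 in the DMSO dishes and 9.26, 10.1 and 11.8 in the trametinib dishes. Relative to the median tested gene this was 0.682, 0.517 and 0.764 in DMSO and 1.59, 1.74 and 2.06 in trametinib. SLIT2 was thus below the middle of the tested genes in all 3 DMSO dishes and above it in all 3 trametinib dishes. On the log2 scale, the edgeR estimates were 0.27 (SE 0.34) in input, 1.72 (SE 0.16) in footprints and 1.45 (SE 0.31) in ribosome density, a ratio of 2.73. By the density estimate, the value by which it was chosen, SLIT2 ranked 9 of the 10663 tested genes. Of the genes above it, 6 were among the 1294 genes with a mean under 20 normalized input counts, where the estimates scatter with an SD of 0.57. The SE of the SLIT2 density change was 0.45 in DESeq2, and counting error of the summed counts alone gives 0.38, both above the 0.31 of edgeR. Without the dish of DMSO replicate 1 the density change of SLIT2 was 1.5 (SE 0.41).

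**Figure D3:**
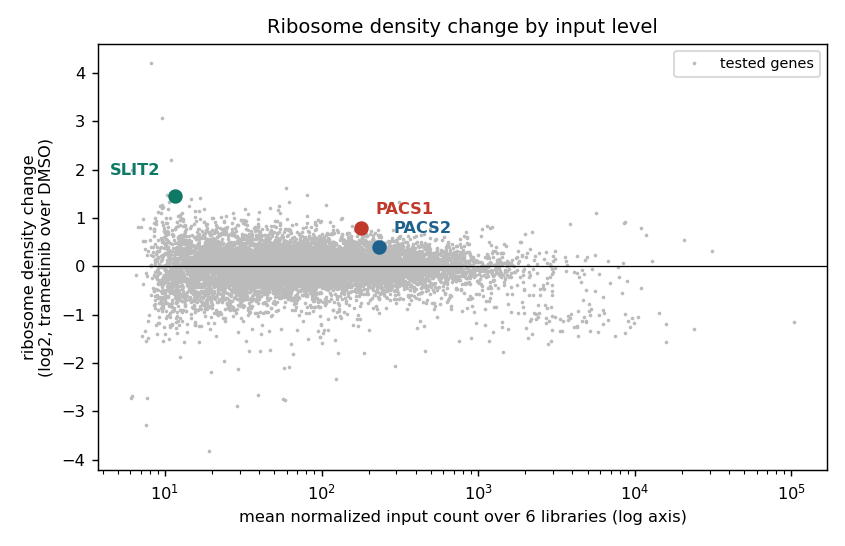
Ribosome density change (log2, trametinib over DMSO, edgeR estimate) of the 10663 tested genes (grey) against their mean normalized input count over 6 libraries (log axis). PACS1 at 0.80, PACS2 at 0.40 and SLIT2 at 1.45 are marked. The scatter of the grey points widens to the left, where SLIT2 lies at a mean input of 11.6.

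ROBO1, the receptor through which SLIT2 acts on the cell that bears it, was barely detected. Its raw counts were 1, 0 and 2 in DMSO input, 3, 3 and 2 in trametinib input, 2, 1 and 3 in DMSO footprints and 2, 4 and 5 in trametinib footprints. It failed the filter on low counts and was not tested. On summed counts the ratio of trametinib to DMSO was 3.03 in input (exact 95% interval 0.728 to 17.7) and 1.86 in footprints (exact 95% interval 0.630 to 6.12). Both intervals include 1, and a change of ROBO1 was not detectable at this depth. Per kilobase of coding sequence, SLIT2 input in DMSO was 2.29 ± 0.417 normalized counts and ROBO1 input was 0.194 ± 0.200 (SD, n = 3).

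Most other ligands and receptors of the family fell below the filter as well. SLIT1 had at most 4 counts in any of the 12 libraries and SLIT3 at most 2. ROBO4 had 0 counts in all 6 input libraries, where a count of 0 allows up to 3, and at most 11 in a footprint library. ROBO2 was not among the genes that were counted and could not be analysed. Of the receptors analysed here, ROBO3, best known from commissural axons, was the one with enough counts for a test. Its normalized counts were 26.7 ± 9.55 in DMSO input and 16.8 ± 5.03 in trametinib input, and 117 ± 72.6 and 79.4 ± 9.99 in footprints (SD, n = 3). The edgeR density change of ROBO3 was 0.09 (SE 0.60, adjusted p = 0.996).

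The wider SLIT-ROBO pathway was compared to see whether other parts of it moved with SLIT2. The list held 39 genes, of which 37 were in the table and 32 were tested. In ribosome density 0 of the 32 were called by edgeR in either direction, against 1.05% of all tested genes, and 4 had an unadjusted p under 0.05, against 8.22% of all tested genes. The median density change of the list was 0.08, against -0.01 for all tested genes. SOS1, which encodes an exchange factor that activates RAS and RAC, is named after its values were seen. Its input was 144 ± 20.9 and 124 ± 38.6 normalized counts and its footprints 513 ± 26.3 and 889 ± 105 in DMSO and trametinib (SD, n = 3). The density change of SOS1 was 1.00 (SE 0.27, edgeR adjusted p = 0.147). Its adjusted p was 0.0326 in DESeq2 and, with a replicate block in edgeR, 0.0468 by number and 0.0203 by dish. SOS1 was not called in the other 5 alternatives that kept all libraries. Nor was it called in the 12 that left out 1 library, or without the dish of DMSO replicate 1.

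In input, 7 of the 32 SLIT-ROBO genes were higher and 1 was lower, where 15.4% and 16.8% of all tested genes were called in these directions. In footprints, 10 were higher and 1 was lower, where 23.9% and 25.6% of all tested genes were called. These counts rest in part on single libraries. In input, 3 genes were called higher without DMSO replicate 2 or trametinib replicate 2 and 4 without trametinib replicate 1 or 3, and 2 were called lower without DMSO replicate 2. In footprints, 17 were called higher without DMSO replicate 1. The same 3 genes had the largest changes in both assays. SDC1, a heparan sulfate proteoglycan of the cell surface, fell by 1.85 on the log2 scale in input and by 1.92 in footprints (edgeR adjusted p = 0.00247 and 6.17e-04). BMP1, a secreted metalloprotease of the tolloid family, rose by 1.21 in input and by 1.53 in footprints (edgeR adjusted p = 1.33e-04 and 2.31e-05). NCK2, an adaptor that links receptors to actin regulators, rose by 1.17 in input and by 0.92 in footprints (edgeR adjusted p = 9.45e-04 and 0.00114). For these 3 genes the density change was -0.07, 0.32 and -0.25, none of them called.

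The sorting route in which PACS1 works was compared in the same way with 31 genes, of which 29 were tested. It held furin and related proprotein convertases, the subunits of AP1, GGA adaptors, the subunits of CK2, clathrin, retromer and known cargo. In ribosome density 0 of the 29 were called by edgeR and 2 had an unadjusted p under 0.05, where 1.05% and 8.22% of all tested genes did, with changes between -0.58 and 0.53 and a median of -0.05. PACS1, at 0.80, was chosen for its change and is not part of this list. In input 4 were higher and 2 lower, and in footprints 8 were higher and 7 lower. In all, 20.7% of the list was called in input and 51.7% in footprints, where 32.1% and 49.4% of all tested genes were, so that the footprint share was near that of all genes. The number of the route's genes called lower in footprints was 2 with library totals or without trametinib replicate 2, 3 without trametinib replicate 1 or 3 and 4 without DMSO replicate 2. In input, 2 were called higher without DMSO replicate 2 or any 1 trametinib replicate, and 1 was called lower when any 1 input library other than DMSO replicate 3 was left out.

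Among the named genes of the route, FURIN had 207 ± 46.0 and 258 ± 17.7 normalized counts in input and 413 ± 38.3 and 635 ± 20.0 in footprints, in DMSO and trametinib. FURIN footprints rose by 0.62 on the log2 scale (SE 0.12, edgeR adjusted p = 0.00262), and its input change of 0.32 was not called (SE 0.18, adjusted p = 0.195). WDR37, which encodes a binding partner of PACS proteins, was called in neither assay, with log2 changes of 0.47 in input and 0.21 in footprints (edgeR adjusted p = 0.163 and 0.261). PCSK5, a convertase related to furin, rose by 1.09 in input and by 1.08 in footprints (edgeR adjusted p = 0.00363 and 3.61e-04). PKD2, an ion channel and a cargo of PACS proteins, rose by 0.98 in footprints (edgeR adjusted p = 0.00251).

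The subunits of the AP1 adaptor did not move together. AP1M1, a medium subunit, fell by 1.09 on the log2 scale in input and by 0.84 in footprints (edgeR adjusted p = 0.00540 and 7.44e-04), while AP1G2, one of its large subunits, rose by 0.73 and 0.65 (edgeR adjusted p = 0.00503 and 0.00162). Their density changes were 0.25 and -0.09, neither of them called. AP1M2, the other medium subunit and the more abundant of the pair (289 ± 26.5 normalized counts in DMSO input against 116 ± 35.0), rose by 0.29 in footprints (edgeR adjusted p = 0.0451), and its input change of 0.39 was not called (adjusted p = 0.0584). AP1B1, AP1S1 and AP1S2 fell in footprints by 0.40, 0.38 and 0.75 (edgeR adjusted p = 0.0202, 0.0395 and 0.00108), and AP1G1 was called in neither assay. With library totals only 2 genes of the route were called lower in footprints, in place of 7. The AP1 subunits were not followed singly over the alternatives.

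**Figure D4:**
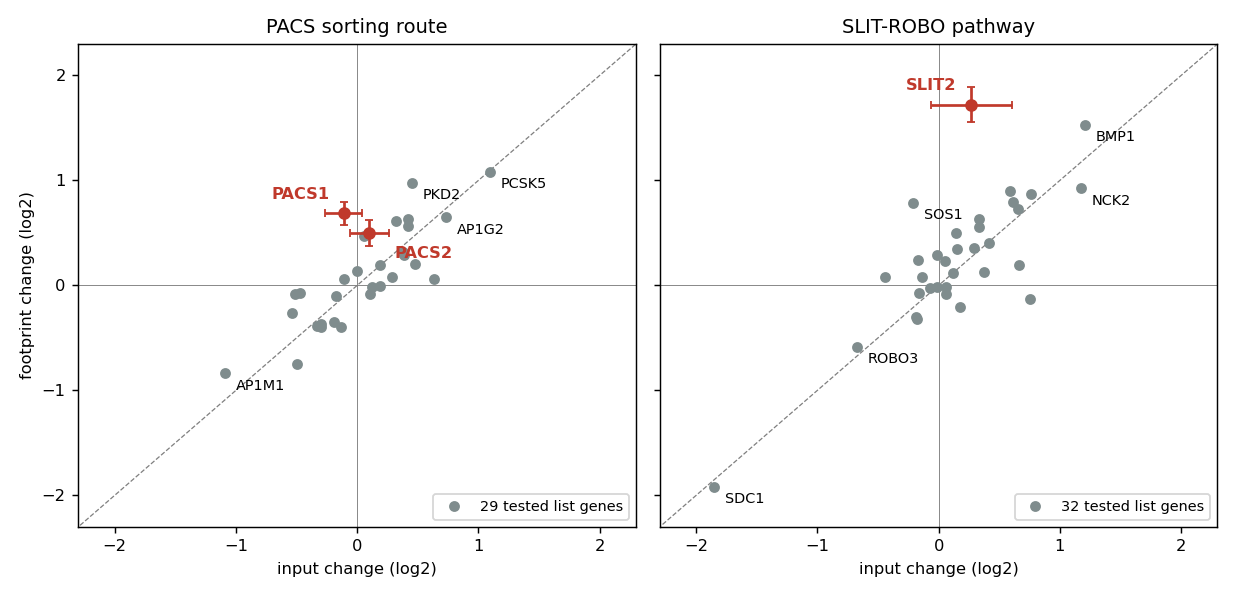
Footprint change against input change (log2, trametinib over DMSO, edgeR estimates) for the 29 tested genes of the PACS sorting route (left) and the 32 of the SLIT-ROBO pathway (right). Red points with SE bars are PACS1, PACS2 and SLIT2, and the dashed diagonal marks equal change in both assays. Most list genes lie along the diagonal. PACS1 (-0.11, 0.69) and SLIT2 (0.27, 1.72) lie above it, by the change for which they were chosen, and nothing is read from this. PACS2 (0.10, 0.50) and the list gene SOS1 (-0.21, 0.79) lie above it as well.

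Genes with the most similar course over the 12 libraries were sought with Pearson's r on log2 CPM, centred within each assay, among genes with a mean of at least 50 normalized counts in both assays. Points of one dish share their lysate, and r is a description. For PACS1 they included TBC1D1 (r = 0.942), ADGRL1 (0.919), MARK2 (0.917) and SPG21 (0.894). Their density changes lay between 0.32 and 0.63, below that of PACS1, which was chosen for its value. For SLIT2 they were IFIT5 (r = 0.965), NEO1 (0.951), ZFYVE9 (0.947), KLHL12 (0.941) and EFR3A (0.941), with density changes between 0.37 and 0.69. The value of SLIT2, 1.45, is the one by which it was chosen. Its mean input of 11.6 normalized counts is below the 50 asked of these genes. Both searches favour genes whose input and footprints moved like those of PACS1 or SLIT2. Nothing is therefore read from the density changes of the genes found.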

How the data were processed

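Ribosome profiling was done on 12 HCT116 libraries. Per the study's methods, the authors removed adapters, discarded reads aligning to rRNA and tRNA with Bowtie 1.2.2, mapped the rest to the Gencode basic set and counted reads of footprint length within reading frames of 1 gene symbol. The deposited table holds whole-number counts per library. It also holds the same counts divided by 1 size factor per library, a signal that the authors deposited and that was used only to check the counts. The log2 fold changes and adjusted p-values deposited by the authors from DESeq2 1.46.0 were not used. There were 0 unused columns of values per library, and 0 pairs of libraries were identical.

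The filter asked for 10 or more counts in 3 or more input libraries and left 10663 genes, among them 3 of the 4 members. edgeR 4.0.16 in R 4.3.3 was run on counts with TMM factors within each assay and quasi-likelihood tests: assay by treatment over 12 libraries for ribosome density, and treatment within the 6 libraries of an assay. P-values were adjusted by Benjamini-Hochberg over all tested genes and called under 0.05. The SE is the estimate over the square root of its F statistic. Normalized counts used median-of-ratios factors within each assay. The models were run on simulated counts of independent libraries with the same dispersion for every gene. Such counts hold no deviation shared within a dish, and nothing is read from them here. Alternatives included DESeq2 1.42.0 and limma-trend (limma 3.58.1).

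Members and lists were chosen with earlier results of these data known. Named list genes are up to 3 called genes with the largest change per list and assay, plus SLIT and ROBO genes, FURIN, WDR37 and AP1 subunits. The 5 genes most like PACS1 and the 5 most like SLIT2 were sought, and 1 of those for PACS1 is not reported here.

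The methods take input and footprints from 1 lysate, and libraries of equal treatment and number were taken as a dish. Deviations from group means over 8377 genes correlated at 0.802, 0.189 and 0.343 for the DMSO dishes and at 0.143, 0.0724 and -0.113 for the trametinib dishes. Between treatments, libraries of equal number correlated at 0.0705, 0.0580 and 0.316 in input and at 0.109, 0.127 and 0.292 in footprints. Footprint counts of DMSO replicate 1 differed from those of replicates 2 and 3 with a chi-square per degree of freedom of 64.5 and 129, against 26.1 between the latter. Whether replicates come from separate cultures is stated only as biological replicates, and p-values measure the spread between these libraries.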

Additional observations from a re-analysis of the deposited data

How the results depend on the processing

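Of the member values recomputed on all libraries, 65 kept their call or stayed within 1 SD and 4 moved. With 1 library left out, 71 did so and 1 lost its call (PACS2 footprints without trametinib footprint replicate 1), while of the counts of list genes 77 stayed within 1.5 times and 19 did not. With library totals, the density change of PACS1 was 0.98, its footprint change 0.86 and the footprint change of SLIT2 1.90, and CPM gave a difference in footprints per input of 0.98 for PACS1 in place of 0.80. That scaling moves the median of all tested genes by a like amount. The number of genes called higher in density was 4 and became 37 with DESeq2, 27 with library totals, 10 without a filter, 8 with the replicate block by number, 18 with the block for each dish and 13 without DMSO dish 1, an alternative chosen after the data were examined. The cause of these increases was not tested, except that library totals shift all genes upward. Leaving out 1 library gave from 1 (without trametinib footprint replicate 1 or 2) to 12 genes (without DMSO input replicate 3). Genes called higher in input ranged from 1069, without trametinib replicate 2, to 1767. With 1 library left out, the density change ranged from 0.74 to 0.87 for PACS1, from 0.31 to 0.49 for PACS2 and from 1.29 to 1.55 for SLIT2, and the footprint change of PACS2 from 0.47 to 0.55. With the replicate block for each dish these density changes were 0.80, 0.40 (edgeR adjusted p = 0.423) and 1.44. Beside the density call of SOS1, the number block moved 1 count of list genes by over 1.5 times (SLIT-ROBO genes lower in input, from 1 to 2), and it changed no call of PACS2. Depth limits SLIT2 in input and ROBO1 in both assays.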
